A study of Mus musculus with 24 samples.

Results

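The collagens, laminins and integrins comprise 83 protein-coding mouse genes, 44 for collagen chains, 11 for laminin chains and 28 for integrin subunits, out of 21755 protein-coding genes annotated on chromosomes 1 to 19 and X. They were selected by a rule on the gene symbol, from names that begin with Col, a number and a, with Lama, Lamb or Lamc, or with Itga or Itgb, and the rule itself uses no measured value. For each gene the H3K9ac peaks within 1 kb of a transcription start site (TSS) were collected from 12 peak lists. H3K9ac, acetylated lysine 9 of histone H3, marks active promoters.

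The lists come from 4T1 mouse mammary carcinoma cells grown as spheroids, in a study that asked whether fatty acid oxidation through CPT1a and the acetyltransferase KAT2a shape histone acetylation in metastasising cells. H3K9ac was measured by ChIPmentation, in which a transposase tags the immunoprecipitated chromatin while it is still on the beads. The 4 groups had 3 libraries each, namely scramble control cells, cells without CPT1a, the same knockout grown with 5 mM acetate, and cells without KAT2a, all collected after 5 days of spheroid culture. CPT1a carries long-chain fatty acids into mitochondria, and acetate is another source of the acetyl-CoA used by acetyltransferases. The labels give 75 µM palmitate for the scramble, CPT1a knockout and KAT2a knockout groups and only acetate for the acetate group, whereas a figure legend of the study describes palmitate there too. All lines carried an inducible Cas9 and were selected with puromycin. The scramble guide targets EGFP, and for each knocked-out gene a pair of guides to different exons was designed. The guide behind a given library is not stated in the labels, nor whether a line was a clone, or whether the 3 libraries of a group came from separate cultures, so that p-values measure the spread between these libraries, which may be technical. The labels and the methods also name different catalogue numbers for the H3K9ac antibody.

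Collagens are trimers that form fibrils, networks and the type IV sheet of the basement membrane, and laminins are cross-shaped trimers of an alpha, a beta and a gamma chain that line the epithelial side of that membrane. Integrins are pairs of an alpha and a beta subunit that hold cells on these ligands and signal from them. In carcinoma cells they decide which matrix a cell can adhere to, and RGD-binding integrins such as alpha v beta 6 and alpha v beta 8 also release active TGF-beta from its latent form.

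The promoters below are a selection of 5 members that differed between some groups in rank or in the libraries with a peak. They are not ordered by strength of difference, and others with calls, such as Lamb3, are not shown. Itgb6 and Itgb8 encode the partners of integrin alpha v, Col8a1 encodes a network-forming collagen chain, Col5a1 a chain of fibrillar type V collagen, and Itga1 the alpha subunit of a collagen receptor. Each line gives, 5′ to 3′, the 250 bases before the GENCODE gene start in the GRCm38 genome of RefSeq. None of the 5 stretches overlaps an annotated exon. Capitals mark matches on either strand to CCAAT or GGGCGG, which on the other strand read ATTGG and CCGCCC. The stretches are chr2:60722644-60722893 (minus strand) for Itgb6, chr12:119238803-119239052 (minus) for Itgb8, chr16:57754738-57754987 (minus) for Col8a1, chr2:27886175-27886424 (plus) for Col5a1 and chr13:115101965-115102214 (minus) for Itga1.
Itgb6: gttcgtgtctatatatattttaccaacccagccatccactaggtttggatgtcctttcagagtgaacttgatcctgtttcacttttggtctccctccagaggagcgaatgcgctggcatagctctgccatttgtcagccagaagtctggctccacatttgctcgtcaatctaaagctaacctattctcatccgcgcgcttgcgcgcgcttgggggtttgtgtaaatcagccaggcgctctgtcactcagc
Itgb8: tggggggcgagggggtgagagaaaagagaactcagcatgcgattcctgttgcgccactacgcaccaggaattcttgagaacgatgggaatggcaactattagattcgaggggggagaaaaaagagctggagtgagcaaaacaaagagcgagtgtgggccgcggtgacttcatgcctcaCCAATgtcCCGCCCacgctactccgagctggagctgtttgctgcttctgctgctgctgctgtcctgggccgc
Col8a1: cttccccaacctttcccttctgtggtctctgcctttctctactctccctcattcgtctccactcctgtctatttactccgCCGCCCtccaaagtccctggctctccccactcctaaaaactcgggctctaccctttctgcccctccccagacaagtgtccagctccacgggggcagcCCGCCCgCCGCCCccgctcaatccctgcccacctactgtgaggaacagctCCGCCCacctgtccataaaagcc
Col5a1: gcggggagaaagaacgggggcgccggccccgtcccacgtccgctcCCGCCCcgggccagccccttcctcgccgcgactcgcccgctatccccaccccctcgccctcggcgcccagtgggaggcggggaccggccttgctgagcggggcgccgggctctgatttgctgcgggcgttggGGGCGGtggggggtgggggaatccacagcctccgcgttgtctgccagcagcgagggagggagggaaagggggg
Itga1: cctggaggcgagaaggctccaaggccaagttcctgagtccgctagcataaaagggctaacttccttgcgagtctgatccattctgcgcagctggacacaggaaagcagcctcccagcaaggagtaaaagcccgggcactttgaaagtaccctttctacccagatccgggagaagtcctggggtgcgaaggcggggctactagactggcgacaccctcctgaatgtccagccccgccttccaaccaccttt

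The Col8a1 stretch holds 4 matches to GGGCGG and that of Col5a1 holds 2, while Itgb8 has 1 match each to GGGCGG and CCAAT and Itgb6 and Itga1 have none. The 250 bases before the start contained GGGCGG in 32.7% and CCAAT in 33.9% of 32851 RefSeq promoters of the same length. TATAAA was found in 12.4%, TGANTCA in 6.75%, CACGTG in 6.02% and the NF-kB motif in 3.90% of them, all on both strands, and in none of the 5 stretches. A RefSeq promoter was found for 60 of the 83 genes. Of the 22 such genes with a peak in every library, 14 held GGGCGG, and of the 31 without a peak in any library, 13 did. GC content ran from 50.4% in the Itgb6 stretch, which has 11 CpG, to 76.4% in that of Col5a1, which has 28.

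A peak lay at the promoter of 27 of the 83 genes in all 12 libraries, at 13 in 1 to 11 libraries and at 43 in none. Thus 32.5% of the collagen, laminin and integrin promoters were called throughout, against 49.5% of all protein-coding promoters, and 51.8% against 45.1% were never called. Laminin promoters were called most often, with 7 of 11 in every library, compared with 10 of 28 integrins and 10 of 44 collagens. The promoters called throughout had a median ratio of observed to expected CpG of 0.359, and those never called 0.269, next to 0.455 and 0.218 for all genes of these 2 classes.

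By family, basement membrane chains and their receptors held most of the genes called throughout. Of the 6 type IV collagen genes, Col4a1, Col4a2, Col4a5 and Col4a6 had a peak in every library, as did Col7a1, which anchors that membrane to the stroma, and Col18a1, the source of endostatin. All 3 laminin beta chain genes, Lamc1, Lama3 and Lama5 were called in every library, and Lama1 and 2 other alpha chain genes in none. Among integrins, Itga3, Itga6 and Itgb4, which bind laminin, Itga1 and Itga2, which bind collagen, Itgb1, the beta subunit shared by most of these receptors, and the RGD-binding Itgav, Itga5, Itga8 and Itgb5 had a peak in every library. Fibrillar collagens were called less: of 11 genes, Col5a1 had a peak throughout, Col1a1 in 11 libraries, Col27a1 in 7 and Col24a1 in 2, and Col1a2 and Col3a1 in none. Of the 9 genes for leukocyte integrins, Itga4 and Itga9, 8 were never called and Itgb2, the beta subunit of leukocytes, in 2 libraries. Col6a1 was called throughout but its partner Col6a2 was not called in any library, and Col17a1, the hemidesmosomal collagen, had no promoter peak.

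The labelled cell type was checked on markers of 4 cell types. All 7 epithelial markers examined (Epcam, Cdh1, Krt8, Krt18, Krt19, Cldn4 and Cldn7) had a promoter peak in every library, and so did Vim, Twist1 and Pdgfra of 6 mesenchymal markers. None of 5 endothelial markers had a peak in any library, and of 6 leukocyte markers only Cd68 had one, in 2 scramble libraries. The lists held 16212 to 34370 peaks. The calling depth, the mean number of fragments covering a base when peaks were called, was recovered from the lists and was 1.87 to 2.52 in scramble, 0.554 to 1.70 in CPT1a knockout, 0.660 to 1.91 with acetate and 1.02 to 1.81 in KAT2a knockout. Scramble libraries were thus all deeper than CPT1a and KAT2a knockout libraries, and the part of depth in the comparisons with scramble was not tested beyond the equal-depth lists described with the results.

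The strength of a promoter was described by its rank percentile, from 0 for the weakest to 100 for the strongest, of its deposited fold enrichment within its library, taken over the 10777 genes whose promoter was called in all 12 lists. A rank compares promoters within a library, so that a fall means a fall relative to the other promoters and not a loss of acetylation in absolute terms. The fold enrichment itself is not scaled between libraries. Its values are printed below as a description, and differences between libraries can reflect this scale. The mean over the 12 libraries ran from 3.44 for Lama3 to 92.0 for Itgb1. Itgb1 ranked at 71.5 or above in every library, at 96.8, 90.6 and 71.5 in scramble and at 99.5, 99.5 and 99.1 in KAT2a knockout. Itga3 and Lamc1 followed with mean ranks of 80.5 and 80.3, and the weakest promoters after Lama3 were Col7a1 at 3.53 and Itga8 at 4.70.

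Laminin chains differed widely in rank. Lama3 and Lamb3, which belong to the laminin of hemidesmosomes, were both weak, with mean ranks of 3.44 and 7.64. In laminin-511 the chains Lama5, Lamb1 and Lamc1 had mean ranks of 76.5, 43.7 and 80.3. The laminin receptor subunits Itga6 and Itgb4, which pair with each other, were close at 64.7 and 68.9. Of the type IV collagens, Col4a1 and Col4a2 lie head to head with TSSs 21 bp apart and shared their strongest promoter peak in all 12 libraries, so that their ranks, 43.0 to 90.8, were a single measurement. Col4a5 and Col4a6, the other head-to-head pair, have TSSs 1309 bp apart, shared a peak in 1 library and were weak, with mean ranks of 10.4 and 7.66.

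**Figure D1:**
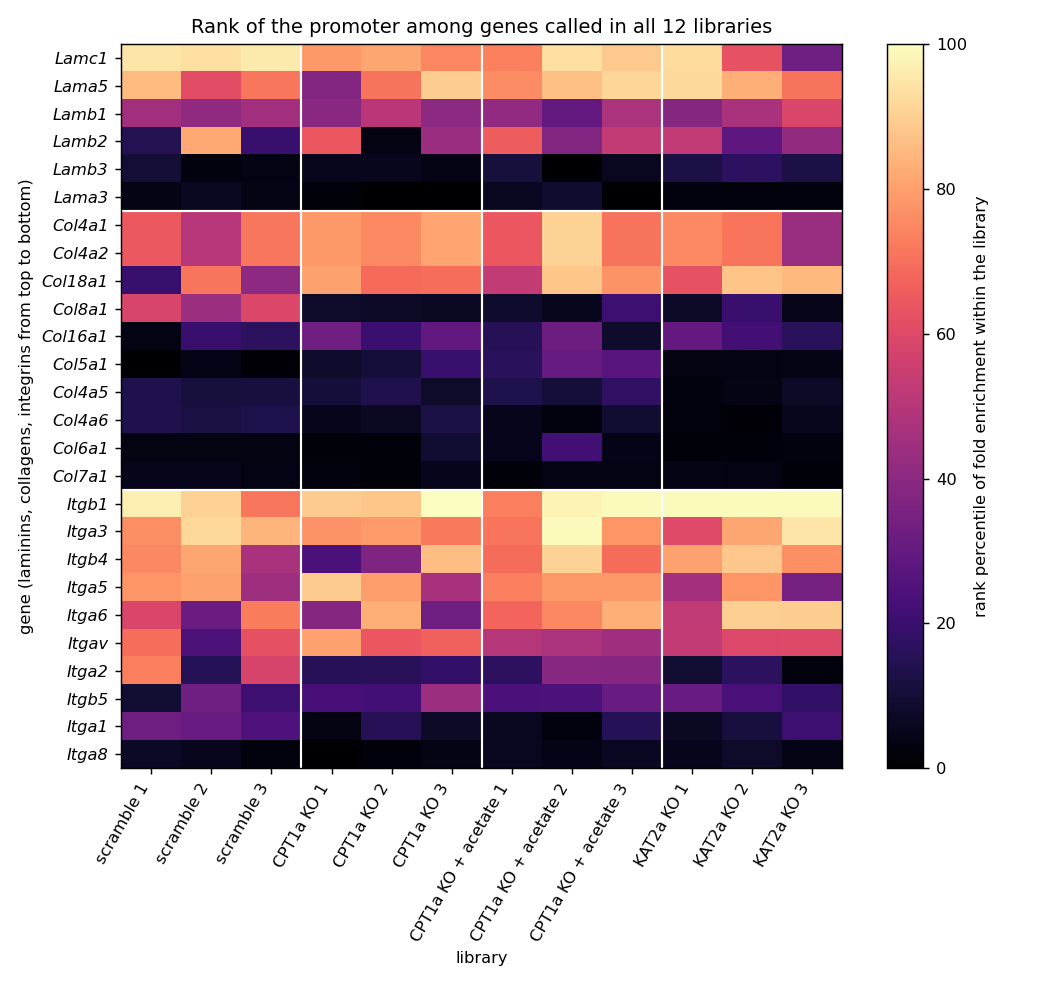
Heat map of the rank percentile (0 to 100, colour) of the promoters of genes with a peak in all 12 libraries, with libraries in columns by group and laminins, collagens and integrins in blocks of rows. Itgb1 is pale in every column with ranks of 71.5 or above, Lama3 and Col7a1 are dark throughout, and Col8a1 is lighter in the 3 scramble columns than in the other 9.

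The first question was whether loss of CPT1a changed these promoters. In CPT1a knockout, 3 of the 27 promoters ranked lower than in scramble, Col8a1 and Itga1 among them, and none ranked higher (limma, Benjamini-Hochberg adjusted p below 0.05 over 10777 genes). Of all genes tested 5.24% ranked lower and 4.77% higher. By ranks of the -log10 p, 3 members ranked higher. The median difference was -1.20 percentiles for the 27 promoters and 0.217 for all genes. An unadjusted p below 0.05 was reached by 7 of the 27 and by 2922 of all 10777 genes.

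Col8a1, which forms the hexagonal networks of vessel walls and Descemet's membrane, showed the largest fall. It lies at chr16:57624258-57754737 on the minus strand. Its promoter ranked at 58.3, 43.8 and 59.4 in scramble, at 7.92, 7.52 and 6.73 in CPT1a knockout, at 8.52, 5.71 and 20.4 with acetate and at 7.50, 19.6 and 4.76 in KAT2a knockout. The scramble libraries thus stood above the other 9 without overlap. The difference was -46.4 ± 5.73 (SE) for CPT1a knockout against scramble with an adjusted p of 0.000619 (limma), and its side of the threshold was kept in all 20 alternative settings. The fold enrichment itself was 20.3, 18.1 and 21.0 in scramble and 13.5, 16.0 and 8.45 in CPT1a knockout. The peak was 4848 ± 923 bp wide in scramble and 2524 ± 692 bp in CPT1a knockout (SD, n = 3). The median promoter was also narrower in CPT1a knockout, at 1658 to 2234 bp against 2743 to 3411 bp in scramble. Relative to it the log2 difference of Col8a1 was -0.39.

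Itga1, whose product pairs with Itgb1 as a receptor for collagens, ranked at 32.8, 31.1 and 24.8 in scramble and at 3.28, 15.6 and 7.48 in CPT1a knockout. The groups did not overlap, and the difference was -20.8 ± 4.65 with an adjusted p of 0.0133 (limma). The call was lost on quantile-normalised fold enrichment and without CPT1a knockout replicate 1. In all 12 libraries the strongest peak of Itga1 was also within 1 kb of a TSS of Gm49395, which starts 1 bp away from one of its own, and the peaks cannot be assigned to either gene. Its summit lay 489 to 885 bp from the nearest TSS in scramble and 201 to 356 bp from it in the other 9 libraries. This was not particular to Itga1. The summit of Itgb1 lay at 714 to 733 bp in scramble and at 156 to 316 bp elsewhere, and Lamc1 was also split in this way. At Lamb3 and Itga8 the groups overlapped. Itga2, the neighbouring alpha subunit of the same receptor family, ranked at 73.1, 14.9 and 57.9 in scramble and 15.3, 15.9 and 18.1 in CPT1a knockout. Scramble replicate 2 was below the CPT1a knockout libraries here, and the difference of -32.2 ± 11.1 did not pass (adjusted p = 0.0788, limma).

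Lama3 and Lamb3 differed by -4.07 ± 2.12 and -0.354 ± 2.91 percentiles in the same comparison, with adjusted p of 0.232 and 0.950 (limma).

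**Figure D2:**
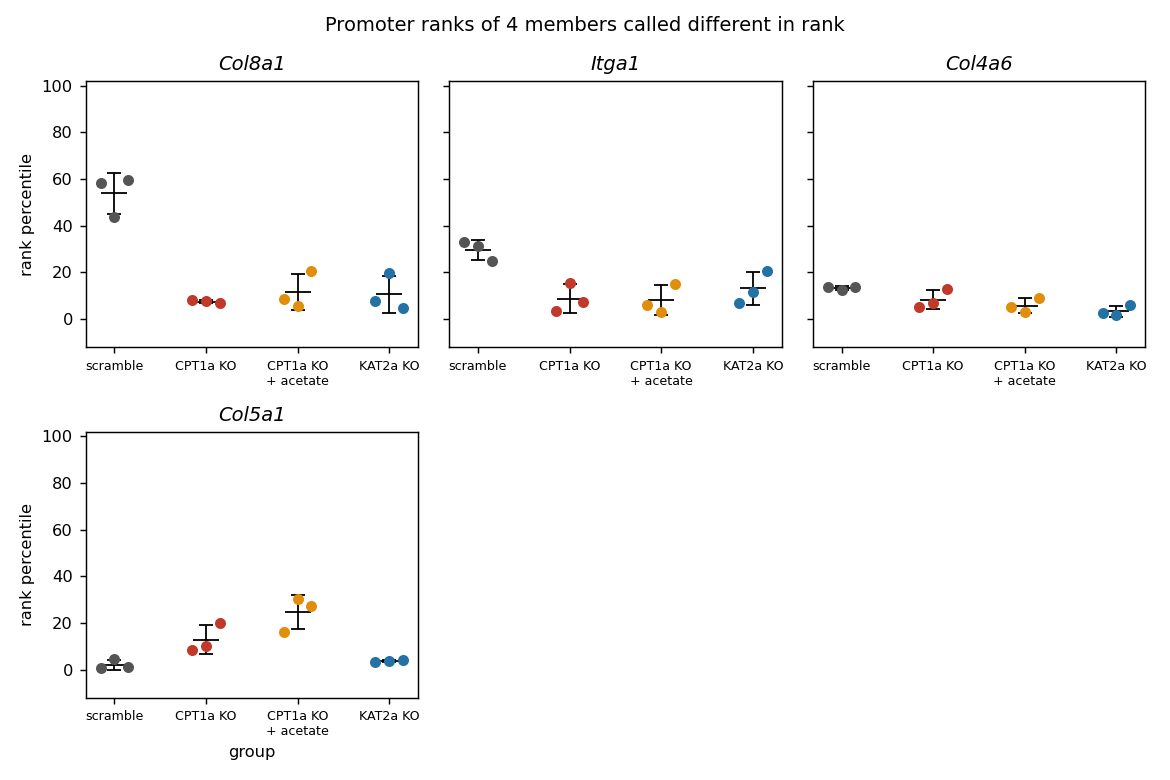
Rank percentile (vertical axis, 0 to 100) of 4 promoters called different in rank in at least 1 comparison, with 1 point per library, the group mean as a bar and the SD as an error bar (n = 3). Col8a1 lies at 43.8 to 59.4 in scramble and at 20.4 or below elsewhere, and Col5a1 is highest with acetate at 16.3 to 30.1.

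Loss of KAT2a, an acetyltransferase known for acetylating H3K9, gave calls at 2 of the 27 promoters, and both ranked lower than in scramble. Of all genes 2.71% ranked lower and 1.70% higher, and no member ranked higher. By ranks of the -log10 p the count was 2 higher and 5 lower. Col8a1 differed by -43.2 ± 5.73 (adjusted p = 0.00201, limma), again in all 20 alternative settings. Col4a6 ranked at 13.9, 12.5 and 13.6 in scramble and at 2.5, 1.53 and 5.80 in KAT2a knockout, a difference of -10.1 ± 2.62 (adjusted p = 0.0438). Its fold enrichment, which is not scaled between libraries, overlapped at 10.9, 10.4 and 10.0 in scramble and 10.1, 9.49 and 11.3 in KAT2a knockout. The rank call of Col4a6 was kept in 6 of 20 alternative settings. Itga1 at -16.4 ± 4.65 and Itga2 at -39.1 ± 11.1 did not pass, with adjusted p of 0.0582 and 0.0590. Itgb1 stood at a difference of 13.1 ± 7.82 (adjusted p = 0.360), and Lamc1 at -31.7 ± 11.5 (0.130), with KAT2a knockout libraries at 92.9, 63.1 and 33.1. The median difference of the 27 promoters was 1.31 percentiles, and that of all genes 0.104. An unadjusted p below 0.05 was reached by 8 of the 27 and by 2243 of all 10777 genes.

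Acetate was added to ask whether acetyl-CoA supply restores acetylation. Against CPT1a knockout without acetate, no collagen, laminin or integrin promoter was called in rank by limma, and of all genes 0.0278% ranked higher and 0.0186% lower. By ranks of the -log10 p and by quantile-normalised values the count was also 0. An unadjusted p below 0.05 was reached by 981 of all 10777 genes and by 1 of the 27 promoters. This was Col5a1, at 8.21, 10.3 and 19.8 in CPT1a knockout and 16.3, 30.1 and 27.2 with acetate, with a difference of 11.8 ± 3.76 (adjusted p = 0.378). Col8a1 differed by 4.15 ± 5.73 and Itga1 by -0.812 ± 4.65.

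Against scramble, the acetate group had 1 promoter ranked higher and 2 ranked lower, and of all genes 1.66% ranked higher and 3.90% lower. By ranks of the -log10 p, 4 members ranked lower. Itga1 differed by -21.6 ± 4.65 (adjusted p = 0.0158, limma) and Col8a1 by -42.3 ± 5.73 (adjusted p = 0.00212). Itga1 lost its call on quantile-normalised values and without scramble replicate 1 or acetate replicate 1 or 2. These 3 comparisons with scramble share the same control libraries and are not independent of each other.

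Col5a1, a chain that starts and limits collagen fibrils, moved the other way. It lies at chr2:27886425-28039514 on the plus strand. Its promoter ranked at 0.677, 4.40 and 1.10 in scramble, 8.21, 10.3 and 19.8 in CPT1a knockout, 16.3, 30.1 and 27.2 with acetate and 3.27, 3.67 and 3.92 in KAT2a knockout. The rank rose by 22.5 ± 3.76 with acetate against scramble (adjusted p = 0.00529, limma), and the call was lost in 1 of 19 settings, the removal of the GC trend. At the equal calling depth of 0.55 Col5a1 could not be fitted, and 0 members ranked higher in this comparison. The fold enrichment was 4.70, 7.38 and 4.76 in scramble, 13.7, 17.8 and 12.4 in CPT1a knockout, 16.7, 18.3 and 19.5 with acetate and 10.9, 12.1 and 9.98 in KAT2a knockout. The 3 scramble libraries were the lowest on this scale, which is not matched between libraries. By rank scramble replicate 2 lay above the KAT2a knockout libraries. For CPT1a knockout against scramble the rank difference was 10.7 ± 3.76 and did not pass (adjusted p = 0.0840).

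Several strong promoters varied widely within a group and were not called in rank. Itga3, which pairs with Itgb1 to bind laminin, ranked at 76.3, 91.9 and 84.7 in scramble, 77.0, 79.2 and 72.1 in CPT1a knockout, 71.3, 99.0 and 77.8 with acetate and 60.4, 81.3 and 94.6 in KAT2a knockout. Itgb4, the hemidesmosomal beta subunit, ranked at 75.3, 81.5 and 47.2, at 24.2, 36.8 and 86.6, at 69.1, 90.8 and 69.2 and at 80.7, 88.4 and 76.8 in the same order. Lama5 ranged from 37.7 to 89.7 within CPT1a knockout alone. In each of these genes the groups overlapped. Col18a1 ranked at 19.8, 71.2 and 40.1 in scramble and at 80.2, 68.9 and 69.8 in CPT1a knockout, with no call (29.3 ± 13.2, adjusted p = 0.168, limma). Lamb1, found in most laminins, was steadier, at 29.8 to 58.6 over the 12 libraries, and the weak Col7a1 and Itga8 stayed at 1.78 to 5.16 and at 0.640 to 8.10. Lamb2 ranged from 3.22 to 81.7 and shared its strongest peak with Usp19, whose TSS is 1725 bp away, in 5 libraries. The ranges were 24.3 to 80.3 for Itgav, 34.6 to 89.4 for Itga5, 9.51 to 43.9 for Itgb5, 1.73 to 21.5 for Col6a1 and 3.74 to 33.1 for Col16a1.

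The width of a promoter's peaks was examined as a measure of its own, since it does not use the fold enrichment. Summed widths were taken on a log2 scale relative to the median promoter of each library. That median was 2743 to 3411 bp in scramble, 1658 to 2234 bp in CPT1a knockout, 2006 to 2443 bp with acetate and 2088 to 2566 bp in KAT2a knockout. It was widest in the deepest library, scramble replicate 1, and narrowest in the shallowest, CPT1a knockout replicate 3. At similar calling depths of 1.91 and 1.87, acetate replicate 3 had 2443 bp and scramble replicate 2 had 2743 bp. The part of depth in the widths was not tested. The direction of a width change therefore holds only relative to the other promoters of a library. Among the 27 promoters 5 were wider and 2 narrower in CPT1a knockout than in scramble, 6 wider and 2 narrower in KAT2a knockout, and 8 wider and none narrower with acetate (limma, adjusted p below 0.05). The same calls took 13.8% and 7.45%, 10.7% and 6.15%, and 11.1% and 6.27% of all genes. With acetate against CPT1a knockout limma called none of the 27 and 0.00% of all genes in either direction. An unadjusted p below 0.05 was reached by 2 of the 27 and by 674 of all 10777 genes. Without the centring on the library median, the median of all genes shifted by -0.54, -0.32 and -0.38 on the log2 scale against scramble in CPT1a knockout, KAT2a knockout and acetate, and the split became 0 wider and 14 narrower, 1 and 7, and 2 and 10.

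Lamb3, the beta chain of the hemidesmosomal laminin, had the largest relative gain in width. Its peaks spanned 726, 540 and 600 bp in scramble, 1115, 1158 and 374 bp in CPT1a knockout, 1278, 1047 and 1446 bp with acetate and 2147, 1819 and 1340 bp in KAT2a knockout. Apart from CPT1a knockout replicate 3, which had the lowest depth, all libraries of the other groups lay above scramble. The log2 difference was 1.84 ± 0.26 for KAT2a knockout (adjusted p = 0.00106) and 1.42 ± 0.26 for acetate (adjusted p = 0.00466), both kept in all 17 alternative settings including no centring, and 0.92 ± 0.26 for CPT1a knockout (adjusted p = 0.0262), which was lost in 6 settings, among them no centring and leaving out scramble replicate 2 or 3 or CPT1a knockout replicate 1 or 2. The rank of Lamb3 was 9.83, 3.05 and 3.54 in scramble and 12.5, 16.8 and 12.9 in KAT2a knockout, a difference that did not pass (8.60 ± 2.91, adjusted p = 0.108).

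Col5a1 was wider relative to the median promoter in all 3 comparisons with scramble, by 1.01 ± 0.14 in CPT1a knockout, 0.47 ± 0.14 in KAT2a knockout and 1.10 ± 0.14 with acetate. Its peak spanned 2189, 2172 and 1983 bp in scramble and 4156, 2788 and 3475 bp with acetate, and without centring only the acetate call remained. The calls of Col5a1 were kept in 16 of 17 settings in CPT1a knockout, 11 in KAT2a knockout and 17 with acetate. Col7a1 and Col18a1, both of the basement membrane zone, were also called wider in all 3 comparisons, by 0.52, 0.85 and 0.70 and by 0.36, 0.39 and 0.39 in the same order. In base pairs Col18a1 spanned 2992 ± 641 in scramble, 2548 ± 264 in CPT1a knockout, 3043 ± 401 in KAT2a knockout and 2923 ± 143 with acetate (SD, n = 3), and without centring neither gene was called wider in any of them. Of 17 settings, the Col18a1 calls were kept in 7, 9 and 11 and the Col7a1 calls in 12, 15 and 15, again in the same order. The further relative gains were those of Lama5 in CPT1a knockout and with acetate (0.50 and 0.76), of Itga8 and Itga2 in KAT2a knockout (0.74 and 0.33) and of Col6a1, Lama3 and Itgb4 with acetate (1.12, 1.12 and 0.24). The call of Lama5 was kept in 6 of 17 settings in CPT1a knockout and in 14 with acetate. Those of Itga8, Itga2, Col6a1 and Itgb4 were kept in 11, 12, 15 and 9 of 17, and that of Lama3 in 10 of 16.

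Col8a1 and Col4a6 were narrower in both knockouts. Col8a1 fell by 0.39 ± 0.11 on the log2 scale in CPT1a knockout and by 0.38 ± 0.11 in KAT2a knockout, calls that were lost in 4 and 5 of 17 settings, and also ranked lower in both. Col4a6 differed by -0.96 ± 0.28 and -1.18 ± 0.28, from widths of 5070, 1411 and 2385 bp in scramble and 781, 946 and 963 bp in KAT2a knockout. In scramble replicate 1 the same peaks were within 1 kb of the starts of both Col4a6 and Col4a5, 5070 bp in all for either gene, and without this library the Col4a6 call was lost in CPT1a knockout but kept in KAT2a knockout.

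**Figure D3:**
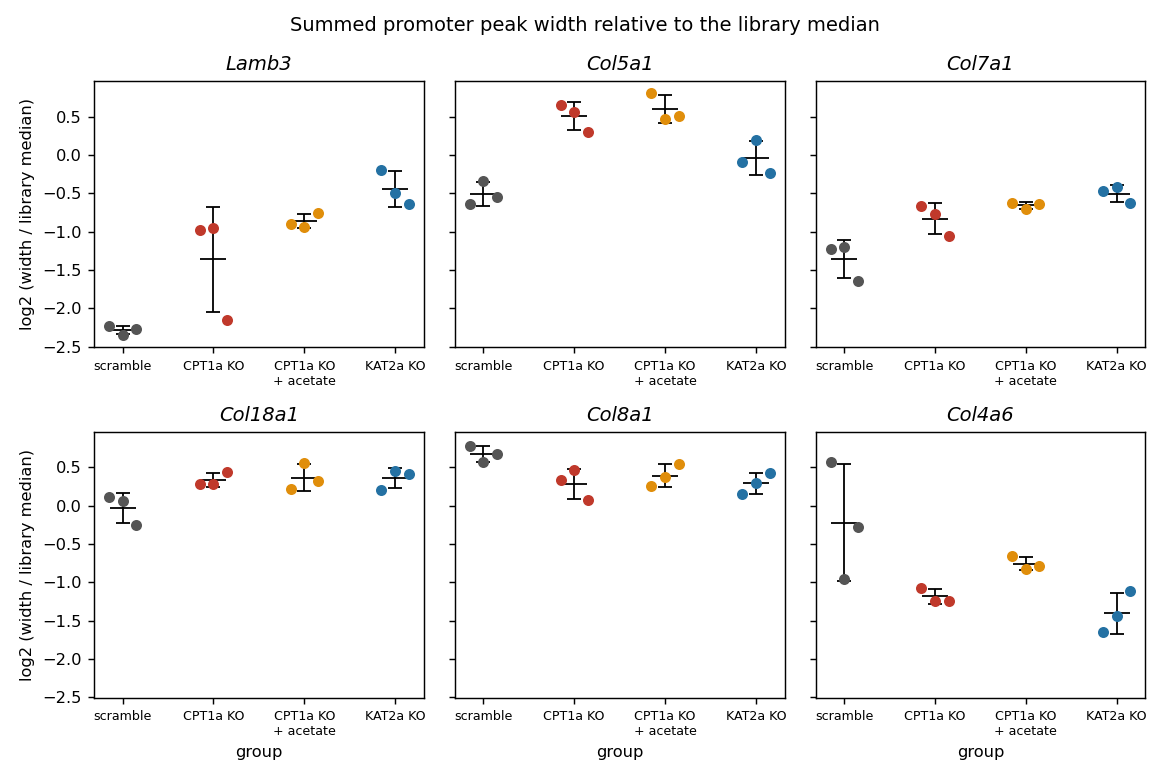
Summed width of the promoter peaks of 6 genes as the log2 ratio to the median promoter of the same library (vertical axis), with 1 point per library, the group mean and the SD (n = 3). Lamb3 lies at -2.34 to -2.23 in scramble and at -0.64 to -0.19 in KAT2a knockout, and the 3 scramble points of Col5a1 are the lowest of its 12.

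The promoters with a peak in only some libraries were all weak. Their fold enrichment was at most 11.8, reached by Itga2b in CPT1a knockout replicate 2. A peak was taken as particular to one group of a comparison if it was called in 3 of 3 libraries there and in 0 of 3 of the other. Between CPT1a knockout and scramble, Itgb6 was called in scramble only, and no member in CPT1a knockout only, next to 0.101% and 0.129% of all genes. Between KAT2a knockout and scramble, 4 members were called in KAT2a knockout only, namely Itgb8, Itga7, Col12a1 and Col27a1, and none in scramble only, next to 0.699% and 0.0552% of all genes. Between acetate and scramble, Itga7 was called with acetate only and Itgb6 in scramble only, next to 0.211% and 0.133%. Between acetate and CPT1a knockout there was none in either direction, next to 0.0138% and 0.00460%.

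Itgb6, the epithelial partner of integrin alpha v, lies at chr2:60598292-60722643 on the minus strand. Its promoter peak had a fold enrichment of 6.36, 4.79 and 5.02 in scramble and 7.66, 9.25 and 6.21 in KAT2a knockout, and no peak was called in any of the 6 CPT1a knockout libraries with or without acetate. The -log10 q was 5.70 to 12.2 in scramble and 8.30 to 19.2 in KAT2a knockout. At an equal calling depth of 0.55 the peak was kept in 3 of 3 KAT2a knockout libraries and in 0 of 3 scramble libraries, so that the difference between scramble and CPT1a knockout was not detectable at that depth.

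Itgb8, another partner of alpha v, was called in the 3 KAT2a knockout libraries only, with fold enrichments of 5.91, 10.2 and 7.33. It lies at chr12:119158022-119238802 on the minus strand. It kept its peak at a -log10 q of at least 5 in all 3 and at the equal depth of 0.55 in 2 of 3, with 0 in all other libraries in each case. Both peaks were among the weakest of their libraries, at the percentiles 3.10, 7.91 and 5.08 of all promoters called in the same library for Itgb8 and at 2.33 to 6.85 for Itgb6.

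Itga7, a laminin receptor subunit of muscle, was called in 0 scramble, 2 CPT1a knockout, 3 acetate and 3 KAT2a knockout libraries, with fold enrichments of 3.17 to 6.53. Col27a1 was called in 0, 2, 2 and 3 libraries and Col12a1, a collagen on the surface of fibrils, in 0, 1, 2 and 3, in the same order. At the equal depth of 0.55 Itga7 and Col12a1 had no peak left in KAT2a knockout and Col27a1 had 1, and none of the 3 any in scramble. Without CPT1a knockout replicate 3, the library of lowest depth, 3 members rather than 0 were called in every remaining CPT1a knockout library and in no scramble library, namely Itga7, Col27a1 and the transmembrane collagen Col23a1.

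Col1a1, the main fibrillar collagen of stroma, was called in every library but scramble replicate 3, and so were Col8a2 and Itga2b. Col1a1 was weak throughout, with fold enrichments of 4.16 to 8.98. Itgb3, the beta subunit of the vitronectin receptor, was missing only in CPT1a knockout replicate 3 and reached 2.49 to 9.26. At the equal depth of 0.55, Col8a2 and Itga2b kept a peak in 3 of 3 libraries of every group but scramble, where 0 of 3 had one. Col14a1, Col24a1 and Itgb2 were called in 1 or 2 libraries each.

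**Figure D4:**
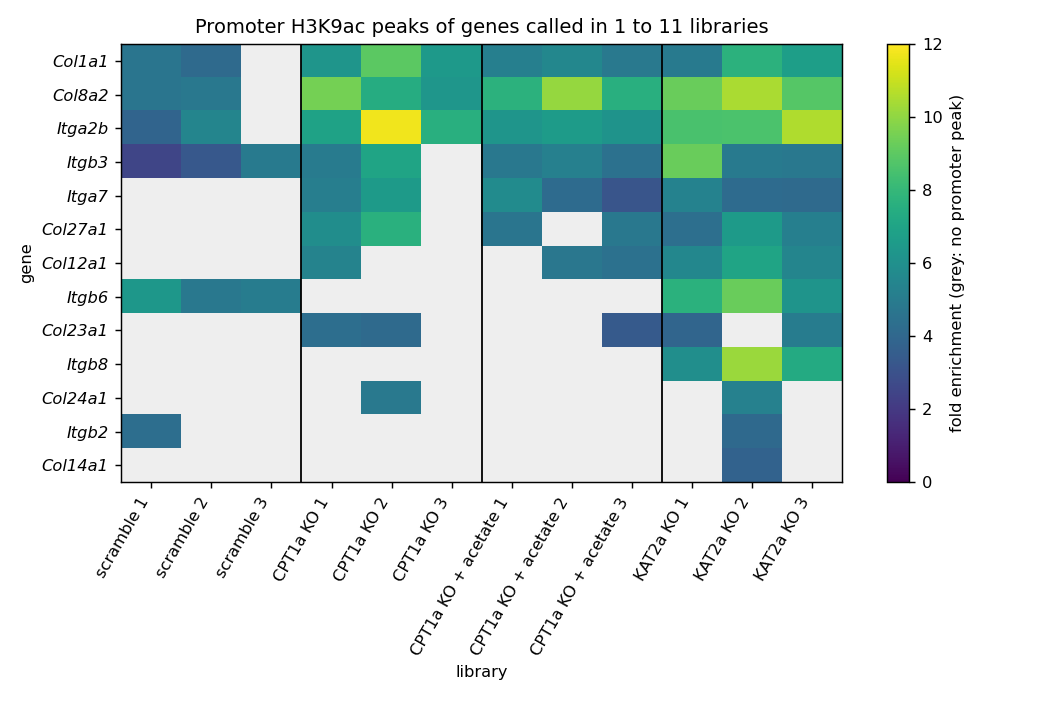
Fold enrichment (colour) of the strongest promoter peak of the 13 genes called in 1 to 11 libraries, with libraries in columns by group and grey where no promoter peak was called. Itgb6 is filled in the 3 scramble and the 3 KAT2a knockout columns only, and Itgb8 in the 3 KAT2a knockout columns only.

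The number of the 83 promoters with a peak was 33, 32 and 29 in scramble, 35, 35 and 30 in CPT1a knockout, 33, 33 and 35 with acetate and 37, 39 and 37 in KAT2a knockout. KAT2a knockout libraries were above scramble without overlap, by 6.33 promoters, with an exact permutation p of 0.1 (two-sided), the smallest that 3 libraries against 3 allow, and 0.4 after adjustment over the 4 comparisons. CPT1a knockout differed from scramble by 2 (exact p = 0.5), acetate from CPT1a knockout by 0.333 (exact p = 1) and acetate from scramble by 2.33 (exact p = 0.3). All protein-coding genes moved the same way, with 53.3%, 53.6% and 52.7% called in KAT2a knockout and 52.4%, 51.6% and 51.3% in scramble, also without overlap. All 3 KAT2a knockout libraries had more of these promoters than any scramble library at a lower calling depth, of 1.02 to 1.81 against 1.87 to 2.52. Among the CPT1a knockout and acetate libraries the shallowest had 30 and 33.

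**Figure D5:**
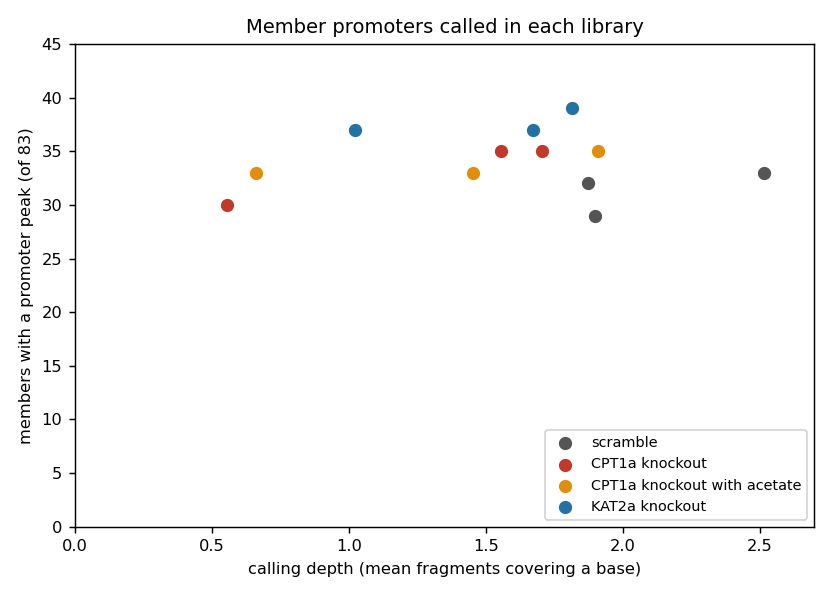
Number of collagen, laminin and integrin promoters with a peak (vertical axis, of 83) against the calling depth of the library (horizontal axis, mean fragments covering a base), with 1 point per library coloured by group. KAT2a knockout libraries lie at 37 to 39 and scramble libraries at 29 to 33, although scramble libraries are the deeper ones.

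Other genes of the pathway were examined as 3 lists. Of 7 matrix ligands other than collagens and laminins with a peak in every library, 3 ranked lower in CPT1a knockout, 3 in KAT2a knockout and 2 with acetate against scramble, and none higher. Of all genes 5.24%, 2.71% and 3.90% ranked lower in these comparisons. The ligands were Spp1 and Sparc in all 3 comparisons and Thbs1 in both knockouts without acetate. Spp1, the integrin ligand osteopontin, differed by -51.4 ± 7.31 in CPT1a knockout (adjusted p = 0.00143), -52.1 ± 7.31 in KAT2a knockout (0.00210) and -29.5 ± 7.31 with acetate (0.0319, all by limma). Sparc, a collagen-binding matrix protein, differed by -26.4 ± 4.48, -26.5 ± 4.48 and -20.6 ± 4.48 (adjusted p = 0.00389, 0.00675 and 0.0166). Agrn, the heparan sulphate proteoglycan agrin, was not called in rank and was relatively wider in the same 3 comparisons, by 0.74, 0.61 and 0.67 on the log2 scale. The medians of the list were -1.62, -7.60 and -10.7 percentiles, next to 0.217, 0.104 and 0.148 for all genes.

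Of 18 adaptors and kinases at integrin adhesions, 2 ranked lower in CPT1a knockout (Plec and Tln1), 0 in KAT2a knockout and 1 with acetate against scramble (Plec), and none higher, with medians of 2.60, 1.34 and 1.35 percentiles. Of all genes 5.24%, 2.71% and 3.90% ranked lower and 4.77%, 1.70% and 1.66% higher in these comparisons. Plec, which ties integrin beta 4 to keratins, ranked lower by limma in CPT1a knockout and with acetate, with differences of -41.4 ± 11 and -41.5 ± 11 (adjusted p = 0.0288 and 0.0413), yet was relatively wider in all 3 comparisons with scramble, by 0.54, 0.38 and 0.50 on the log2 scale. Tln1, which links integrins to actin, was likewise relatively wider in CPT1a knockout, by 0.36. In width 4 of the 18 were wider and 1 narrower in CPT1a knockout, 3 and 1 in KAT2a knockout and 5 and 1 with acetate against scramble. The same calls took 13.8% and 7.45%, 10.7% and 6.15%, and 11.1% and 6.27% of all genes. Ilk, the integrin-linked pseudokinase, was relatively narrower in the 3 comparisons with scramble, by -0.80, -0.76 and -0.78, and Src was relatively wider, by 0.63, 0.55 and 0.39. Of 15 enzymes that modify or secrete collagen, 1 ranked lower in CPT1a knockout (Ppib), 1 higher in KAT2a knockout (Crtap) and 0 with acetate, with medians of -2.42, 0.552 and 0.532 percentiles. The shares of all genes in rank and width are those given above for the 18. Their named width calls in CPT1a knockout were gains of 0.36 for the collagen chaperone Serpinh1 and 0.28 for the procollagen protease Bmp1, and a difference of -0.35 for the prolyl hydroxylase P4ha1. With acetate against CPT1a knockout no gene of the 3 lists was called in rank or width by limma.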

How the data were processed

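Of 24 samples, the 12 H3K9ac libraries were used and 12 inputs were not analysed here. The authors deposited 1 MACS2-style peak list per library with the fold enrichment over background (a ratio), the -log10 p, the -log10 q and an integer score. The submitters' processing notes name FastQC, Bowtie2, SAMtools, deepTools and MACS2 with the mm10 and dm6 builds, whereas the study's methods name BWA and Picard, and calling settings and the use of inputs were not given in the sources used here. Lists hold called peaks only, so an absent peak is one that missed the caller's threshold (smallest deposited -log10 q 2.00). Peaks within 1000 bp of any TSS of a protein-coding gene of GENCODE vM21 (GRCm38) were assigned to it. The calling depth was the most frequent background value recovered from fold enrichment and -log10 p, with the help of whole pileups where these were found. In scramble replicate 1, CPT1a knockout replicates 1 and 3 and KAT2a knockout replicates 2 and 3 at most 3.36% of the pileups used were whole. There the background values that were not whole numbers were used instead, so the depths of these libraries were recovered differently. Ranks and centred log2 widths were fitted over all 4 groups with limma 3.58.1 (trend, R 4.3.3), with Benjamini-Hochberg adjustment over 10777 genes, and counts of promoters were compared by exact permutation (SciPy 1.17.1, 20 assignments). The fit was tested on simulated data: 44 of 100 shifts of 2 and 41 of 100 shifts of 1 on the log2 scale were called, and 2 of 10577 unchanged genes. Named genes were those called, those in 3 of 3 against 0 of 3 libraries, a set list of main chains, those sharing a peak, the 3 highest and 3 lowest ranks, and up to 3 per pathway list by adjusted p. Others (Col8a2, Itga2b, Col14a1, Col23a1, Col24a1, Itgb2, Thbs1, Tln1, Ppib and Crtap) were named after their values were seen. The values of 1 gene in these counts are not reported here. The symbol rule uses no measured value, but the genes and lists were chosen with earlier results of these data known. Alternatives changed the measure, the gene filter, the peak threshold, the depth, the overlap and each library.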

Additional observations from a re-analysis of the deposited data

How the results depend on the processing

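The depth of the lists limits which weak promoters can be compared, and with 3 libraries a group the exact test cannot go below 0.1. Counts of the 27 promoters called in rank changed as follows. By ranks of the -log10 p, CPT1a knockout against scramble had 3 higher, KAT2a knockout 2 higher and 5 lower and acetate against scramble 4 lower. By quantile-normalised fold enrichment there were 1 higher in CPT1a knockout, 1 lower in KAT2a knockout and 1 lower with acetate. With genes called in at least 1 library KAT2a knockout had 1 higher and 1 lower, and without the GC trend acetate against scramble had 2 higher. At a -log10 q of at least 5 KAT2a knockout had 1 lower, acetate against scramble 5 width calls and no promoter particular to acetate, and acetate against CPT1a knockout differed by -0.667 promoters called (exact p = 0.9), a reversed sign. At the equal calling depth of 0.55 KAT2a knockout had 1 lower and acetate 0 higher, the promoters particular to a group against scramble became 3 for CPT1a knockout and 2 for acetate and 0 for scramble against either, and acetate against CPT1a knockout differed by -1 (exact p = 0.5). At equal list length these were 3, 2, 0 and 0, with 2 for KAT2a knockout, and the difference was -1.67 (exact p = 0.3). Without centring the width calls in CPT1a knockout were 14, and the signs turned for Lama5 (-0.0823), Col7a1 (-0.0546) and Col18a1 (-0.216) in CPT1a knockout, Itga2 (-0.0206) in KAT2a knockout and Col18a1 (-0.0135) and Itgb4 (-0.162) with acetate against scramble. With the widest peak in place of the sum 3 widths were called in CPT1a knockout, 3 in KAT2a knockout and 5 with acetate against scramble. The cause of these shifts was not tested.

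Leaving out 1 library at a time gave 1 to 3 lower ranks in CPT1a knockout (1 without its replicate 1), 1 to 2 in KAT2a knockout (1 without scramble 1 or 3, CPT1a knockout 2, acetate 1 or 2 or KAT2a knockout 2) and 1 to 3 with acetate against scramble (1 without scramble 1, acetate 1 or acetate 2). Higher ranks stayed at 0 to 0 in the knockouts and 1 to 1 with acetate. Width calls ran from 1 to 7 in CPT1a knockout (4 without scramble 1, 1 and 2 without its replicates 1 and 2), 3 to 10 in KAT2a knockout (4 without scramble 1, 5, 3 and 5 without its own replicates) and 5 to 9 with acetate (5 without acetate 1 or 3). Acetate against CPT1a knockout gave 0 throughout. The difference in promoters called ran from 0.833 to 3.67 in CPT1a knockout, 5.17 to 7.17 in KAT2a knockout, 1.17 to 3.17 with acetate against scramble and -1.33 to 1.17 against CPT1a knockout (-1.33 without CPT1a knockout 3, -0.333 without acetate 3). Promoters particular to a group against scramble ran from 0 to 3 for CPT1a knockout (3 without its replicate 3), 4 to 5 for KAT2a knockout and 1 to 2 for acetate (2 without acetate 1 or 2), and 1 to 1 for scramble against CPT1a knockout or acetate.

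Same-numbered libraries did not deviate together, with correlations of -0.0618 to 0.0673 over 18 pairs and 0 libraries that correlated best with their own number. With a replicate block 2 ranks were lower in CPT1a knockout and 2 in KAT2a knockout, and 7, 7 and 8 widths were called in CPT1a knockout, KAT2a knockout and acetate against scramble. Under the block Col8a1 lost its width call in KAT2a knockout. Over all alternatives 365 of these counts and differences were classed as the same, 50 as moved and 5 as reversed. The first class includes small changes. By ranks of the -log10 p, 4 promoters ranked lower in CPT1a knockout where 3 were reported, and this was classed as the same. The genes behind a count could also differ. At equal calling depth Itgb6, Col8a2 and Itga2b had a peak in 3 KAT2a knockout and 0 scramble libraries. None of the 4 genes reported as particular to KAT2a knockout did. Of single-gene calls 418 were the same, 125 lost significance and 6 reversed.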

Other observations

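Peaks inside the genes but outside promoters were counted too. Of the 43 collagen, laminin and integrin genes without a promoter peak, 10 had such a peak in at least 1 library and 3 in all 12, namely Itga10, Itgae and Col17a1. Col17a1, the hemidesmosomal collagen, held 1 to 3 of them per library over its 45751 bp. Itgb7, a leukocyte beta subunit, had such a peak in 11 libraries and Itga9 in 9. In Itgb6, where the promoter peak was called in scramble and KAT2a knockout libraries, gene-body peaks were called in 3 libraries, acetate replicates 2 and 3 and KAT2a knockout replicate 1. Which promoter or enhancer these peaks belong to was not tested.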
